A study of Mus musculus with 25 samples.

Results

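Hepatocytes from mice in which the 2 kinases LATS1 and LATS2 were removed by a virus carrying Cre recombinase were compared with hepatocytes from uninjected mice of the same floxed strain. The comparison held 7 libraries, 3 of the group Lats1/2 KO and 4 of the group Lats1/2 flox ctrl, of the 25 libraries in the series, and it was fitted on these 7 alone. Both groups carried homozygous loxP-flanked alleles of Lats1 and Lats2 (Lats1flox/flox; Lats2flox/flox). Lats1/2 KO mice received an adeno-associated virus of serotype AAV8 by tail vein, with Cre under the hepatocyte-specific TBG promoter, and their livers were taken 1 week later. Lats1/2 flox ctrl mice were untreated, so that virus, Cre and gene deletion cannot be told apart within these 7 libraries. Where the response was set against others, the groups were ApoYap Dox (3 libraries; ApoE-rtTA, TRE-hYAP mice, in which doxycycline switches on human YAP, given the drug for 1 week) over ApoYap ctrl (4 untreated libraries of that strain), and BL/6 AAV-Cre (3 libraries of C57BL/6 mice taken 24 hours after the same virus) over BL/6 ctrl (4 untreated libraries). The labels give no age, sex or batch and do not say that the libraries came from separate mice, so p-values measure the spread between these libraries, part of which may be technical.

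LATS1 and LATS2 are the last kinases of the Hippo cascade: they phosphorylate the coactivators YAP and TAZ, which keeps them in the cytoplasm and marks them for degradation. Without that phosphorylation YAP and TAZ enter the nucleus and bind DNA through TEAD factors, and many of their target genes encode matricellular proteins, cytoskeletal regulators and brakes on the pathway itself. In the liver this cascade is known for restraining organ size and for keeping adult hepatocytes in their differentiated state.

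TEAD factors bind the DNA word GGAATG or its reverse complement CATTCC. Promoters of 4 known YAP target genes that were higher in the Lats1/2 KO libraries are given here with that of Slc1a2. Slc1a2, a glutamate transporter gene of pericentral hepatocytes, was lower in the same libraries, so the word is shown in both directions of change. Each window runs from 250 bases before to 50 bases after the RefSeq start site (GRCm38.p6), written 5′ to 3′ on the gene's strand, with the word in capitals.
Ccn1 (chr3:145649936-145650235, minus strand): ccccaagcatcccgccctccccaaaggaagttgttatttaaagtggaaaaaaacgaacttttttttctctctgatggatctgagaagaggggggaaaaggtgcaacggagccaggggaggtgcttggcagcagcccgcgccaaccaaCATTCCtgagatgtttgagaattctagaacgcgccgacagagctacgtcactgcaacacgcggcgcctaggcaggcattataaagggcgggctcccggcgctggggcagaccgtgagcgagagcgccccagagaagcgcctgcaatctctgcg
Amotl2 (chr9:102717554-102717853, plus strand): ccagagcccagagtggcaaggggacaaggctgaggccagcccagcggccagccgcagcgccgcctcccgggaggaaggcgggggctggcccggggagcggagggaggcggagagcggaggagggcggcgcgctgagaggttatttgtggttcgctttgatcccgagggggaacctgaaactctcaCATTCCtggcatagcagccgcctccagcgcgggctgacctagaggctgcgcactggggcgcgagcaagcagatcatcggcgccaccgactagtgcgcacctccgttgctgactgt
Crim1 (chr17:78199998-78200297, plus strand): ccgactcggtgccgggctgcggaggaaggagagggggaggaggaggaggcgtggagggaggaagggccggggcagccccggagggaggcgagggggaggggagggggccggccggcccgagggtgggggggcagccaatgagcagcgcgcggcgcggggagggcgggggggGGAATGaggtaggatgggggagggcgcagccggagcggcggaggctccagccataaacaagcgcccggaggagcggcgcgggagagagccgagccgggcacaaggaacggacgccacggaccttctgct
Axl (chr7:25788684-25788983, minus strand): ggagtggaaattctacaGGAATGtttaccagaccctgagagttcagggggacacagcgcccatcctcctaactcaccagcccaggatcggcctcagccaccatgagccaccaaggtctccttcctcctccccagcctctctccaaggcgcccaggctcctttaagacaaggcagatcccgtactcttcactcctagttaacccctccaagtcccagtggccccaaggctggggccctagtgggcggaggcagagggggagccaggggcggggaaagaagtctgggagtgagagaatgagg
Slc1a2 (chr2:102706188-102706487, plus strand): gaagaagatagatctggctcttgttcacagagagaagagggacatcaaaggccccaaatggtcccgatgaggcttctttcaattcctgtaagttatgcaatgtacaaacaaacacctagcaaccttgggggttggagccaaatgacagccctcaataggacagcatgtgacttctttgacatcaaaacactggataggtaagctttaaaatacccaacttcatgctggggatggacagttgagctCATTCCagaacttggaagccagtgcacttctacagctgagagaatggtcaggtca
The word, searched on both strands, was present in 14.7% of the 32851 RefSeq promoter windows of this length and in 14.4% of the 9088 tested genes with a window. It was present in 15.4% of the 1690 genes called higher that had a window, in 15.2% of 1096 called lower and in 14% of 6302 not called. Of 11 tested genes of the YAP/TAZ target list with a window, 6 held it: Amotl2, Axl, Ccn1, Crim1, Lats2 and Ptpn14. Of the 10 largest called increases, named below, 7 had a window and 0 held the word. Of the 10 largest called decreases 7 had a window and 5 held it: Apoa4, Cyp2c38, Cyp2d40, Mup9 and Slc1a2. No window was in the table for Ccn2. A match describes these letters only.

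Total counts ran over 10165729, 11337773 and 16515330 in the Lats1/2 KO libraries and lay between 9447816 and 12220977 in the 4 flox ctrl libraries. Between 15679 and 16253 genes had at least 1 count in Lats1/2 KO, against 14404 to 14521 in flox ctrl, and the 50 most abundant genes took 46.4% to 50.2% of counts in Lats1/2 KO, against 52.0% to 54.9% in flox ctrl. Replicates were far from identical: the most alike pair differed by a chi-square of 13.4 per degree of freedom. The first principal component held 70.9% of the variance and separated the groups, and the second, with 9.5%, set flox ctrl 4 apart from the other libraries. Levels are CPM, reads of a gene as a share of the library's reads, scaled by edgeR's TMM factors, which lay between 1.13 and 1.26 in Lats1/2 KO and between 0.854 and 0.924 in flox ctrl. With scaling by total counts alone, the median log2 fold change of all tested genes shifted by 0.41 towards Lats1/2 KO, so every change is given relative to the typical gene. Counts of Xist were at most 5 and those of the Y-linked Ddx3y between 765 and 1828 in all 7 libraries.

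The targeted genes were read first. Lats1 (chromosome 10, 7681214 to 7716460, GRCm38) had 5.16, 4.92 and 2.98 CPM in Lats1/2 KO, against 13.6, 11.8, 12.5 and 14.5 CPM in flox ctrl. All Lats1/2 KO libraries lay below all flox ctrl libraries, and its log2 fold change was -1.60 with SE 0.219 (adjusted p = 0.00108, edgeR quasi-likelihood test with Benjamini-Hochberg adjustment). Lats2 (chromosome 14, 57689662 to 57758388) had 7.78, 18.3 and 10.5 CPM in Lats1/2 KO, against 12.7, 12.5, 13.2 and 12.7 CPM in flox ctrl. Its groups overlapped, Lats1/2 KO 2 being the highest of all 7 and Lats1/2 KO 1 the lowest, and the log2 fold change of -0.06 (SE 0.256, adjusted p = 0.878) was not called. Libraries were primed at the 3′ end of transcripts and the labels do not say which exons the loxP sites flank, so neither level tests the deletion if the counted end lies outside the deleted part. Lats2 is also a listed YAP target, and its log2 fold change in ApoYap Dox, where no Lats gene is floxed, was 1.49 (adjusted p = 1.07e-06). Any part of YAP in the Lats2 level of the Lats1/2 KO libraries was not tested.

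**Figure D1:**
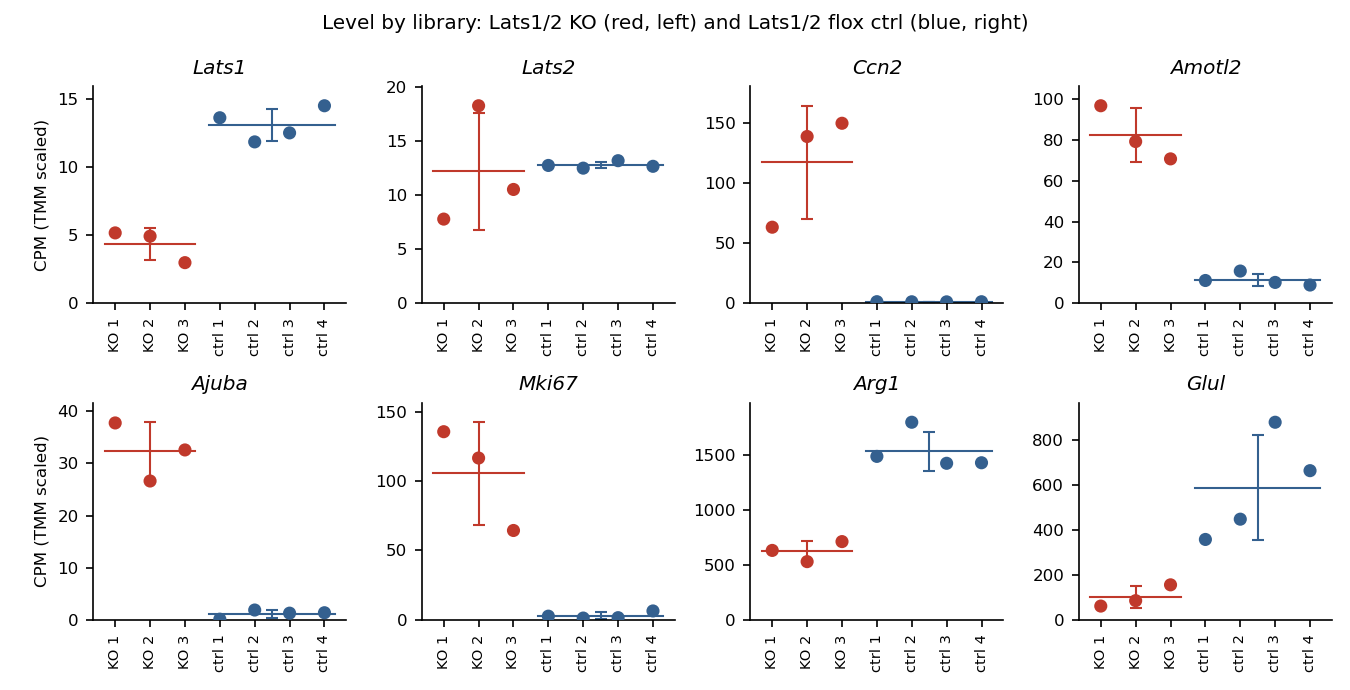
Level of 8 genes in each library (vertical axes, CPM scaled by TMM, from 0), with the Lats1/2 KO libraries left in red and the flox ctrl libraries right in blue; lines and bars give the group mean and SD. Lats1, Arg1 and Glul lie lower in all Lats1/2 KO libraries, Lats2 overlaps, and Ccn2, Amotl2, Ajuba and Mki67 lie higher, with Ccn2 at 63.2 to 149.6 CPM in Lats1/2 KO and 1.15 to 1.29 CPM in flox ctrl.

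Of 11613 genes tested, 2143 (18.5%) were called higher in Lats1/2 KO and 1400 (12.1%) lower, called meaning an adjusted p under 0.05, and 3543 (30.5%) were called in either direction. All Lats1/2 KO libraries lay above all flox ctrl libraries for 22.1% of tested genes and below them for 17.2%. The directions differed in size. Called higher genes had a median log2 fold change of 2.09, and 1113 of 2143 exceeded 2 on that scale. Called lower genes had a median of -0.71, and 83 of 1400 went beyond -2. The directions also differed in starting level: the mean flox ctrl level had a median of 2.43 CPM over the called higher genes, of which 716 were below 1 CPM, and 57.7 CPM over the called lower genes, none of which was below 1 CPM. Low genes could pass the filter on low counts through the Lats1/2 KO libraries alone, as 1120 of the 11613 did. Of the called higher genes 1313 passed in flox ctrl libraries, and 1400 of 1400 called lower genes did. Scaling by total counts alone gave 4542 higher and 381 lower calls, 92.3% of them higher against 60.5% here. Leaving out Lats1/2 KO 2 left 1507 higher and 767 lower calls, and leaving out Lats1/2 KO 1 left 812 lower calls.

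**Figure D2:**
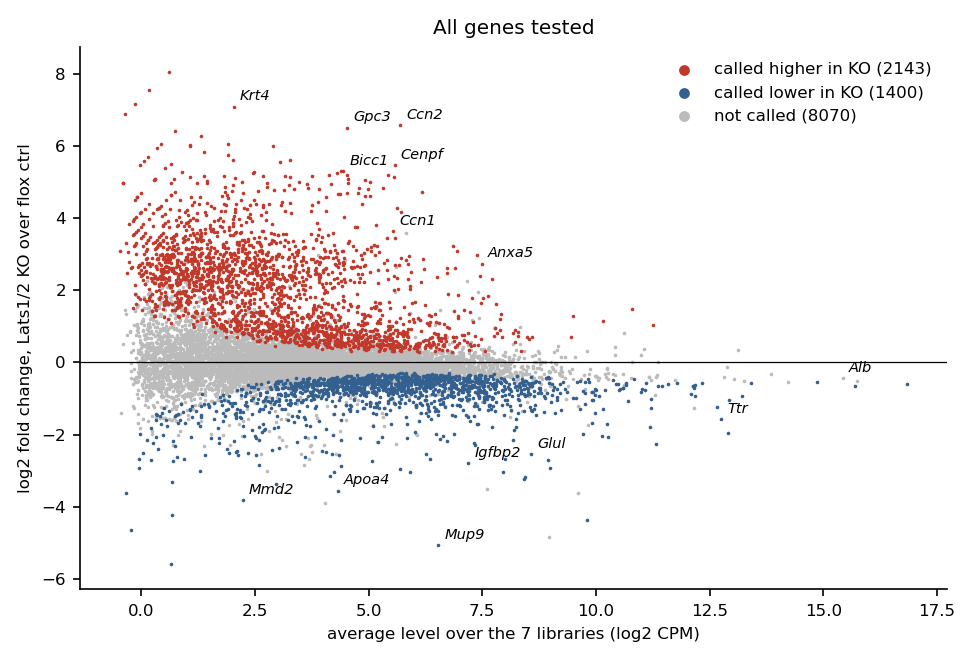
Each point is 1 of 11613 tested genes, by its average level over the 7 libraries (horizontal, log2 CPM) and its log2 fold change of Lats1/2 KO over flox ctrl (vertical). Called higher genes (red, 2143) reach far from 0 at low and middle levels, and called lower genes (blue, 1400) sit closer to 0 and extend to the most abundant genes; 8070 genes in grey were not called.

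By the rule for named genes, the 10 largest called increases were Krt4, Ccn2, Gpc3, Lrtm2, Cdc20, Troap, Fgd3, Cenpf, Aspm and Bicc1, and the 10 largest called decreases were Mup9, Mmd2, Apoa4, Cyp2c38, Cyp2c29, Mup12, Cyp17a1, Elovl3, Slc1a2 and Cyp2d40. The increases took in the YAP target Ccn2, genes of mitosis (Cdc20, the activator of the anaphase-promoting complex, with Cenpf, Aspm and Troap, which act at kinetochores and spindles), a keratin, and Gpc3, a cell-surface proteoglycan of fetal liver and hepatocellular carcinoma. Krt4, a keratin of stratified epithelia, had 365 counts summed over the Lats1/2 KO libraries and 2 over the flox ctrl libraries, a scaled ratio of 154 with an exact 95% interval for counting error from 42.4 to 1279. Gpc3 had 65.1, 56.7 and 33.3 CPM in Lats1/2 KO, against 0.214, 0.657, 0.917 and 0.479 CPM in flox ctrl (6.5 on the log2 scale, SE 0.361, adjusted p = 3.37e-05). Troap, Fgd3 and Lrtm2 had log2 fold changes of 5.61, 5.55 and 6.00. Mmd2 had 0.699, 0.492 and 0.478 CPM in Lats1/2 KO, against 8.03, 6.68, 4.58 and 11.9 CPM in flox ctrl, and fell by 3.81 (SE 0.405, adjusted p = 0.000359). None of these genes had overlapping groups, as the rule required.

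YAP/TAZ target genes rose as a group. Of 22 listed genes 17 were tested, 12 of them passing in flox ctrl libraries, and 11 were called higher and none lower, with a median log2 fold change of 2.07 beside -0.002 over all tested genes. Ccn2 (chromosome 10, 24595442 to 24598683), which encodes the secreted matricellular protein CTGF, had 63.2, 138.6 and 149.6 CPM in Lats1/2 KO, against 1.29, 1.21, 1.15 and 1.25 CPM in flox ctrl. Every Lats1/2 KO library exceeded every flox ctrl library by a wide margin, and the log2 fold change was 6.57 (SE 0.345, adjusted p = 3.37e-05). Ccn1, its paralog CYR61, had 123.3, 120.9 and 48.9 CPM in Lats1/2 KO, against 9.53, 8.54, 7.91 and 5.37 CPM in flox ctrl (3.64 on the log2 scale, SE 0.352, adjusted p = 0.000465). Lats1/2 KO 3 was the lowest of its group for Ccn1 and the highest for Ccn2.

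Amotl2, an angiomotin family scaffold that binds YAP and restrains it, had 96.8, 79.2 and 70.7 CPM in Lats1/2 KO, against 11.1, 15.8, 10.2 and 8.92 CPM in flox ctrl (2.84 on the log2 scale, SE 0.196, adjusted p = 5.46e-05). Crim1, a membrane protein that binds bone morphogenetic proteins, had 103.9, 107 and 128.5 CPM in Lats1/2 KO, against 21, 15.7, 16.2 and 15.2 CPM in flox ctrl, a log2 fold change of 2.74 (SE 0.144). These genes varied little between replicates, whereas Axl, a receptor tyrosine kinase for GAS6, was more uneven. Axl had 26.6, 65.4 and 34.0 CPM in Lats1/2 KO, against 9.42, 4.27, 6.99 and 4.22 CPM in flox ctrl (2.76 on the log2 scale, SE 0.389, adjusted p = 0.00203). Lats1/2 KO 2 was the highest library for 7 of the 11 called targets, Axl among them, beside 1446 of all 2143 called higher genes. That library also had the highest macrophage, endothelial and stellate markers. The part of those cells in the rise of Axl and the other targets was not tested. The 6 tested members that were not called were Lats2, Dock5, Gadd45a, Nt5e, Nuak2 and Ptpn14, with log2 fold changes between -0.35 and 2.07. Ankrd1, a further well-known target, was too low to be tested, with 33, 41 and 8 counts in Lats1/2 KO and 3, 3, 3 and 0 counts in flox ctrl.

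Components of the Hippo pathway changed in part. Of 30 listed genes 27 were tested, with a median log2 fold change of 0.40. Of these, 10 were called higher and 2 lower, beside 18.5% and 12.1% of all tested genes. Scaling by total counts alone called 17 higher. The filter on low counts was passed only through the Lats1/2 KO libraries by 3 of the 27, and in flox ctrl libraries by 8 of the 10. Ajuba, a LIM protein that binds and inhibits LATS kinases, had 37.8, 26.6 and 32.6 CPM in Lats1/2 KO, against 0.107, 1.86, 1.26 and 1.34 CPM in flox ctrl. Its groups were widely separated (4.81 on the log2 scale, SE 0.453, adjusted p = 0.000374), and the related LIM gene Wtip, named after its values were seen, had 3.19 (adjusted p = 0.00199). Other called higher members included Wwc1 (KIBRA) at 1.12, its paralog Wwc2 at 1.20, the kinase Map4k4 at 2.33 and the angiomotin Amot at 2.13 on the log2 scale, each with no overlap between groups. Tead1, a DNA-binding partner of YAP that was named after its values were seen, had a log2 fold change of 1.75 (adjusted p = 0.00165). The called lower members were Lats1 and Taok3, a kinase upstream of MST1/2 at -0.46 (adjusted p = 0.0352), whose call was lost with scaling by total counts alone (-0.06) and without any 1 of Lats1/2 KO 1, Lats1/2 KO 2 and flox ctrl 1, 2 and 3 (adjusted p from 0.0623 to 0.121).

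Of the coactivator genes themselves, Wwtr1 was called higher and Yap1 was not called. Yap1 had 31.6, 34.1 and 38.7 CPM in Lats1/2 KO, against 41.6, 43.8, 42.0 and 40.3 CPM in flox ctrl, a log2 fold change of -0.27 that was not called (SE 0.108, adjusted p = 0.0892) although the groups did not overlap. Without Lats1/2 KO 3 it was called at -0.36 (adjusted p = 0.0332). Wwtr1, which encodes TAZ, had 24.0, 33.5 and 24.6 CPM in Lats1/2 KO, against 13.8, 12.9, 20.2 and 17.2 CPM in flox ctrl, and rose by 0.77 (SE 0.188, adjusted p = 0.0129). That call was lost without Lats1/2 KO 2, at 0.61 (adjusted p = 0.0583).

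Genes of mitosis rose. Of 44 tested G2/M phase genes 43 were called higher and none lower, with a median log2 fold change of 4.71, but 26 of the 44 passed the filter only through the Lats1/2 KO libraries. Mki67, which encodes the proliferation marker Ki-67, had 135.7, 116.7 and 64.4 CPM in Lats1/2 KO, against 2.57, 1.21, 1.49 and 6.33 CPM in flox ctrl (5.15 on the log2 scale, SE 0.543, adjusted p = 0.000937). Lats1/2 KO 3 was the lowest of its group and flox ctrl 4 the highest of the other. The same 2 libraries stood out for Cenpf, with 147, 104.3 and 69.3 CPM in Lats1/2 KO, against 0.964, 0.876, 0.573 and 6.90 CPM in flox ctrl (log2 fold change 5.46, SE 0.764, adjusted p = 0.003). Lats1/2 KO 1 was the highest knockout library for 36 of the 43 called genes. Foxm1, the transcription factor of the G2/M programme, had a log2 fold change of 4.74 and Ccna2, cyclin A2, 4.20.

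Genes of S phase rose by less. Of 39 tested genes 30 were called higher, with a median of 1.53, and 11 of the 39 passed only through the Lats1/2 KO libraries. Mcm4 and Mcm6, subunits of the replicative helicase, had log2 fold changes of 2.49 and 3.40, and Rrm2 and Tyms, which supply deoxynucleotides, 2.92 and 1.76. Tyms was even across the group, with 13.9, 13.9 and 13.3 CPM in Lats1/2 KO, against 4.07, 4.38, 3.32 and 4.31 CPM in flox ctrl. Uhrf1, which maintains DNA methylation behind the replication fork, had a log2 fold change of 4.98. The 1 called lower gene was the replication initiation factor Mcm10, named for that reason, at -1.92 (adjusted p = 0.0325), and its call was lost with scaling by total counts alone and without any 1 of Lats1/2 KO 1, Lats1/2 KO 2 and flox ctrl 1 and 4 (adjusted p from 0.0511 to 0.16). Among cyclins, kinases and their inhibitors 13 of 24 were called higher and none lower, or 20 with scaling by total counts alone. Of the 24, 5 passed the filter only through the Lats1/2 KO libraries, and 9 of the 13 called genes passed it in flox ctrl libraries. Ccnd1, cyclin D1, had 75.0, 98.3 and 48.3 CPM in Lats1/2 KO, against 8.46, 9.09, 4.70 and 9.01 CPM in flox ctrl (3.23 on the log2 scale, SE 0.288, adjusted p = 0.000251). E2f1, a transcription factor of the G1 to S transition, had a log2 fold change of 1.86.

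Targets of p53 were higher as well. Of 21 tested genes 13 were called higher and none lower, with a median of 1.16, and 8 were called without Lats1/2 KO 2. The filter on low counts was passed only through the Lats1/2 KO libraries by 6 of the 21, and 7 of the 13 called genes passed it in flox ctrl libraries. Ccng1, cyclin G1, had 29.3, 28.8 and 28.5 CPM in Lats1/2 KO, against 14.8, 14.2, 16.6 and 12.8 CPM in flox ctrl (0.98 on the log2 scale, SE 0.124, adjusted p = 0.000721). Mdm2, the ubiquitin ligase that degrades p53, had a log2 fold change of 1.29. Phlda3 and Eda2r had 5.10 and 3.94 from flox ctrl levels of at most 0.479 CPM. Of 16 list members tested 24 hours after the virus in BL/6 hepatocytes, 4 were called higher (Ccng1, Cdkn1a, Zmat3 and Plk2), and Ccng1 had a log2 fold change of 1.09 there (adjusted p = 0.00111); the difference between the responses, -0.12, was not called (adjusted p = 0.72). Over the 21 list members that difference was called higher for 3 (Gtse1, Plk2 and Tnfrsf10b) and lower for 2 (Ei24 and Trp53inp1), with a median of 0.17, beside 13.9% and 11.5% of all genes tested for it.

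Few markers of bile duct cells and progenitors could be tested. Of 17 listed genes 6 were tested and 5 were called higher: Sox9, Krt23, Spp1, Bicc1 and Pkhd1. Lats1/2 KO 1 was the highest library for all 5, and 2 were called without Lats1/2 KO 1 or without Lats1/2 KO 2 and 3 without flox ctrl 3 or without flox ctrl 4. Bicc1, an RNA-binding protein of ductal epithelia, had 66.7, 55.4 and 22.8 CPM in Lats1/2 KO, against 0.750, 1.64, 1.26 and 1.25 CPM in flox ctrl (log2 fold change 5.29, SE 0.425, adjusted p = 0.00021). Spp1, osteopontin, had 73.2, 45.0 and 23.1 CPM in Lats1/2 KO, against 2.78, 3.72, 3.55 and 8.63 CPM in flox ctrl (log2 fold change 3.31, SE 0.502, adjusted p = 0.00328). For both genes Lats1/2 KO 1 was the highest knockout library and Lats1/2 KO 3 the lowest, and the groups did not overlap.

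Sox9, the ductal transcription factor, had 213.1, 125.3 and 62.4 CPM in Lats1/2 KO, against 36.1, 75.7, 44.1 and 56.1 CPM in flox ctrl. Its groups overlapped, and the log2 fold change of 1.33 (SE 0.419, adjusted p = 0.0487) was close to the threshold. The call was lost without any 1 of Lats1/2 KO 1 (0.82, adjusted p = 0.147), Lats1/2 KO 2 (adjusted p = 0.137) and flox ctrl 1, 3 and 4 (adjusted p from 0.0687 to 0.0915). Pkhd1, fibrocystin, at 1.39 (adjusted p = 0.016), lost it without Lats1/2 KO 1 (0.0659) or Lats1/2 KO 2 (0.061). Krt23 at 1.69 (adjusted p = 0.0411) lost it without any 1 of the libraries Lats1/2 KO 1, 2 and 3 and flox ctrl 2, 3 and 4 (adjusted p from 0.0675 to 0.103). The classical duct keratins Krt7 and Krt19 had 5 and 12 counts summed over the Lats1/2 KO libraries, against 0 and 3 over flox ctrl, and were not tested.

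Of 5 tested keratins 4 were called higher: Krt4, Krt8, Krt18 and Krt23. The filter on low counts was passed only through the Lats1/2 KO libraries by 2 of the 5, and in flox ctrl libraries by 2 of the 4 called. Krt8 and Krt18, the keratin pair that hepatocytes normally express, were unequal across libraries. Krt18 had 382.9, 227.1 and 171.8 CPM in Lats1/2 KO, against 72.6, 86.1, 64.0 and 80.1 CPM in flox ctrl (log2 fold change 1.78, SE 0.25, adjusted p = 0.00151), and Krt8 had a log2 fold change of 1.51. Fetal liver and imprinted growth genes were mostly too low, with 8 of 20 tested and 4 called higher: Gpc3, Scd2, Cdkn1c and Afp. Of the 8 tested, 3 passed the filter on low counts only through the Lats1/2 KO libraries. Only 1 of the 4 called genes passed it in flox ctrl libraries. Scd2, a stearoyl-CoA desaturase of fetal liver, had a log2 fold change of 2.47 and Cdkn1c, an imprinted inhibitor of cyclin-dependent kinases, 1.52 (adjusted p = 0.011). Afp, alpha-fetoprotein, stayed near the detection limit, with 2.27, 2.46 and 2.02 CPM in Lats1/2 KO, against 0.857, 1.09, 0.459 and 0.863 CPM in flox ctrl (log2 fold change 1.44, adjusted p = 0.0167), and its call was lost without Lats1/2 KO 1 (0.0546) or Lats1/2 KO 2 (0.06). H19, Igf2 and Dlk1 had 9, 5 and 2 counts summed over the Lats1/2 KO libraries, against 3, 1 and 2 over flox ctrl.

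Genes of the actin cytoskeleton and of cell adhesion, through which cell shape and tension feed into YAP, rose broadly. Of 42 tested genes 33 were called higher and none lower, with a median log2 fold change of 1.13. The filter on low counts was passed only through the Lats1/2 KO libraries by 4 of the 42, and in flox ctrl libraries by 29 of the 33. Anxa5, annexin A5, a calcium-dependent phospholipid-binding protein, had 399.3, 320.6 and 326.1 CPM in Lats1/2 KO, against 65.0, 45.9, 48.8 and 49.8 CPM in flox ctrl (2.73 on the log2 scale, SE 0.153, adjusted p = 3.12e-05). Myh9, the heavy chain of non-muscle myosin IIA, had 454.4, 339.1 and 220.6 CPM in Lats1/2 KO, against 93.1, 101.7, 89.1 and 92.4 CPM in flox ctrl (log2 fold change 1.85, SE 0.211). Flna, the actin cross-linker filamin A, had a log2 fold change of 3.22 and was highest in Lats1/2 KO 2. The same held for 25 of the 33 called members, beside 1446 of all 2143 called higher genes. Macrophage, endothelial and stellate markers were also highest in that library, and the part of those cells in these increases was not tested.

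Tubulin isotypes split. Of 10 tested 7 were called higher, among them Tuba1b by 2.47, Tubb5 by 1.77, Tubb6 by 3.08, Tuba1a by 3.45 and Tubb4b by 1.51. Tuba1b had 212.6, 226.1 and 155.2 CPM in Lats1/2 KO, against 40.7, 32.6, 37.8 and 31.3 CPM in flox ctrl. The 1 called lower isotype, Tuba4a, had 46.4, 35.9 and 47.8 CPM in Lats1/2 KO, against 76.2, 81.5, 78.8 and 58.6 CPM in flox ctrl (log2 fold change -0.77, adjusted p = 0.00551), a call lost with scaling by total counts alone (-0.37, adjusted p = 0.071).

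Extracellular matrix genes and TGF beta ligands were called higher in 16 of 21 cases and lower in 2, with a median of 2.49. The filter on low counts was passed only through the Lats1/2 KO libraries by 7 of the 21. In flox ctrl libraries it was passed by 8 of the 16 called higher. Sparc, a collagen-binding matricellular protein, had 195.0, 398.4 and 111.7 CPM in Lats1/2 KO, against 35.7, 15.7, 24.2 and 24.4 CPM in flox ctrl (log2 fold change 3.23, SE 0.462, adjusted p = 0.00271). Tgfb1 and the laminin chain Lamb2 had log2 fold changes of 2.89 and 3.28 from levels below 1.3 CPM. Lats1/2 KO 2 was the highest library for 15 of the 16, the library in which markers of non-hepatocytes were also highest. The 2 lower genes, the basement membrane collagens Col15a1 and Col18a1, had log2 fold changes of -2.55 (adjusted p = 0.00138) and -0.58 (adjusted p = 0.00774), the second of them not called with scaling by total counts alone (-0.18).

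Sorted hepatocytes were the labelled cell type, and hepatocyte markers were abundant in all libraries: the summed level of 10 markers, in CPM of the total without TMM, was 75968, 78554 and 75185 in Lats1/2 KO, against 88226, 93305, 93719 and 83259 in flox ctrl. Markers of other liver cells were present at lower levels and higher in Lats1/2 KO. The 21 macrophage markers summed to 1102, 2923 and 1263 in Lats1/2 KO, against 338.2, 113.9, 184.7 and 144.4 in flox ctrl, a ratio of means of 9.03. The 22 markers of sinusoidal endothelium summed to 944.1, 2548 and 1063 in Lats1/2 KO, against 441.2, 144.8, 194.5 and 141.9 in flox ctrl, a ratio of 6.58. The 20 markers of stellate cells and fibroblasts summed to 499.7, 1133 and 334.4 in Lats1/2 KO, against 91.4, 79.4, 94.2 and 85.5 in flox ctrl, a ratio of 7.48. Without Lats1/2 KO 2 the endothelial and stellate ratios were 4.35 and 4.76. None of these 3 lists had a marker at 0 in either group. Each sum was higher in all Lats1/2 KO libraries, with an exact two-sided permutation p = 0.0571, the smallest that 3 against 4 libraries can give, and 0.0714 after Benjamini-Hochberg adjustment over 10 sums. In bulk libraries, a change in the number of cells of a type and a change in RNA per cell cannot be told apart.

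Gene by gene, 21 of 21 tested macrophage markers, 22 of 22 endothelial markers and 16 of 17 stellate markers were called higher, with median log2 fold changes of 2.87, 2.48 and 2.6. The filter on low counts was passed only through the Lats1/2 KO libraries by 4 of the 17 stellate and 1 of the 22 endothelial markers. In flox ctrl libraries it was passed by 12 of the 16 called stellate markers. Lats1/2 KO 2 was the highest library for all of the macrophage and endothelial markers, and 14 endothelial markers were called without it. Marco, a scavenger receptor of Kupffer cells, had 43.3, 91.5 and 20.0 CPM in Lats1/2 KO, against 1.5, 1.42, 1.15 and 2.40 CPM in flox ctrl, and the resident Kupffer cell receptor Timd4 9.35, 17.7 and 9.25 CPM, against 2.68, 1.31, 1.03 and 1.63 CPM. Pecam1 and Lyve1, of endothelium, had log2 fold changes of 2.85 and 2.96, and Dcn, Bgn and Rgs5, of mesenchymal cells, 2.61, 2.63 and 2.6. Neutrophil markers summed to 1.27 to 5.73 in Lats1/2 KO and to 0.291 to 0.900 in flox ctrl, and 11 of 14 lymphocyte markers were at 0 in flox ctrl and 5 in Lats1/2 KO. Over the 2143 called higher genes the highest knockout library was Lats1/2 KO 2 for 1446, Lats1/2 KO 1 for 554 and Lats1/2 KO 3 for 143, while for G2/M genes it was mostly Lats1/2 KO 1. Leaving the 75 marker genes out before scaling and testing gave 2093 higher and 1383 lower calls, but other genes of those cells remain in these counts, and their part in the increases was not tested.

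**Figure D3:**
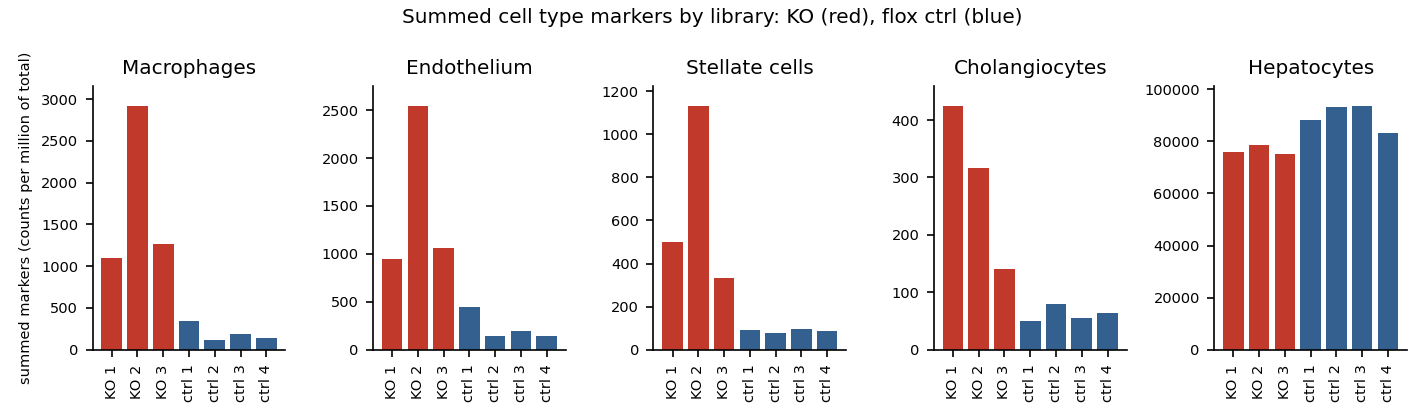
Summed marker genes in each library (vertical axes from 0, CPM of the total), Lats1/2 KO left in red and flox ctrl right in blue. Macrophage, endothelial and stellate sums peak in Lats1/2 KO 2 (2923, 2548 and 1133). The sum of cholangiocyte and progenitor markers, of which 6 of 17 were high enough to be tested singly, peaks in Lats1/2 KO 1 (425.2). The hepatocyte sum lies at 75185 to 78554 in Lats1/2 KO and at 83259 to 93719 in flox ctrl.

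Many genes of differentiated hepatocyte work were called lower. Of 40 tested genes for urea production and the breakdown of amino acids 28 were called lower and none higher, with a median log2 fold change of -0.94, which was -0.54 with scaling by total counts alone, and 18 were called without Lats1/2 KO 1. Arg1, arginase, which releases urea, had 631.8, 529.6 and 712.3 CPM in Lats1/2 KO, against 1489, 1800.2, 1426 and 1431 CPM in flox ctrl. The groups were well apart, and Arg1 fell by 1.30 (SE 0.162, adjusted p = 0.000694). Hal, which starts histidine breakdown, had 160.9, 118.8 and 153.3 CPM in Lats1/2 KO, against 478.3, 463.7, 308.4 and 449.2 CPM in flox ctrl (log2 fold change -1.56, SE 0.189). Asl, Gls2 and Cbs, for argininosuccinate cleavage, glutamine breakdown and transsulfuration, had log2 fold changes of -1.71, -1.48 and -1.04.

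Secreted plasma proteins and apolipoproteins were called lower in 23 of 32 cases and higher in none, with a median of -0.70, and in 10 cases with scaling by total counts alone. Ttr, transthyretin, carrier of thyroxine and retinol-binding protein, had 3043, 2432 and 4207 CPM in Lats1/2 KO, against 9907, 9628, 9456 and 9539 CPM in flox ctrl, and fell by 1.58 (SE 0.2, adjusted p = 0.000748). Apoa1, the main protein of high-density lipoprotein, had 6573, 5645 and 6379 CPM in Lats1/2 KO, against 11933, 12356, 11049 and 12042 CPM in flox ctrl (log2 fold change -0.93, SE 0.143). Apoa4, which is made on fat intake, was at 2.54, 3.02 and 2.82 CPM in Lats1/2 KO, against 32.7, 33.2, 56.2 and 9.97 CPM in flox ctrl (log2 fold change -3.55, SE 0.572, adjusted p = 0.00411). Alb, albumin, had 36073, 37062 and 36616 CPM in Lats1/2 KO, against 48326, 56011, 50117 and 44338 CPM in flox ctrl. Its groups did not overlap, but the log2 fold change of -0.44 (SE 0.151, adjusted p = 0.0511) missed the threshold, which it passed without Lats1/2 KO 3 (-0.45, adjusted p = 0.0468).

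Complement and coagulation factors were called lower in 21 of 35 cases, or in 12 with scaling by total counts alone, with a median of -0.62. F7, coagulation factor VII, had a log2 fold change of -1.13. Mbl2, mannose-binding lectin C, went the other way: it had 1254, 1069 and 952.5 CPM in Lats1/2 KO, against 406.7, 519.9, 474.1 and 376.3 CPM in flox ctrl (log2 fold change 1.30, SE 0.16, adjusted p = 0.000664). The other 2 called higher members, named after their values were seen, were the C4b-binding protein gene C4bp at 0.70 (adjusted p = 0.00776) and Pros1, protein S, at 0.54 (adjusted p = 0.017), whose call was lost without Lats1/2 KO 2 (0.36, adjusted p = 0.0606).

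Lipid genes were called lower in part, in synthesis and in oxidation. Of 22 tested genes of fatty acid and triglyceride synthesis 9 were called lower and none higher (median -1.15), and 5 with scaling by total counts alone. Fasn, fatty acid synthase, had 149.8, 101.7 and 128.8 CPM in Lats1/2 KO, against 469.6, 431.9, 216.0 and 278.8 CPM in flox ctrl (log2 fold change -1.46, SE 0.284, adjusted p = 0.00581), and the desaturase gene Fads2 had -1.75. Of 25 cholesterol genes 11 were called lower and none higher (median -0.60), 4 with scaling by total counts alone and 6 without Lats1/2 KO 2. Fatty acid oxidation and PPAR alpha targets were called lower in 11 of 31 cases and higher in 3 (median -0.50), with 2 lower and 5 higher calls and a median of -0.09 with scaling by total counts alone. The lower calls numbered 6 without Lats1/2 KO 1 or Lats1/2 KO 2, 7 without flox ctrl 2 and 20 without Lats1/2 KO 3. Fabp1, the liver fatty acid binding protein, had 1058, 1218 and 1676 CPM in Lats1/2 KO, against 4062, 2609, 3154 and 2884 CPM in flox ctrl (log2 fold change -1.27, SE 0.217), and Acsl1, which activates fatty acids, had -1.31.

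Against that trend the fatty acid translocase Cd36 had 91.3, 98.5 and 102.6 CPM in Lats1/2 KO, against 18.5, 13, 15.4 and 13.2 CPM in flox ctrl. It was one of the most even increases, at 2.7 (SE 0.14, adjusted p = 2.29e-05). The other called higher members of the oxidation list were the pantetheinase Vnn1 at 1.53 (adjusted p = 0.0016) and Eci2, an enoyl-CoA isomerase named after its value was seen, at 0.60 (adjusted p = 0.0256), which lost its call without any 1 of Lats1/2 KO 3 and flox ctrl 1 and 2 (adjusted p from 0.0562 to 0.0718).

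Bile acid synthesis and transport genes were called lower in 14 of 28 cases and higher in 2 (median -0.60), with 8 lower calls with scaling by total counts alone, 8 without Lats1/2 KO 1 and 7 without Lats1/2 KO 2. Scp2, a peroxisomal thiolase and sterol carrier of side-chain shortening, was even, with 450.5, 443.6 and 434.4 CPM in Lats1/2 KO, against 1139, 1058, 1072 and 1024 CPM in flox ctrl (log2 fold change -1.28, SE 0.122, adjusted p = 0.000218). Slc10a1, the basolateral uptake transporter NTCP, had 50.4, 53 and 117.5 CPM in Lats1/2 KO, against 271.1, 251.8, 253.8 and 183.1 CPM in flox ctrl (log2 fold change -1.70, SE 0.318), and Abcb11, the bile salt export pump, had -1.05. Cyp7a1, whose hydroxylase limits the making of bile acids from cholesterol, had 4.63, 11.9 and 90.8 CPM in Lats1/2 KO, against 49.5, 122.5, 143.1 and 70.8 CPM in flox ctrl. Lats1/2 KO 3 lay inside the flox ctrl range, and the log2 fold change of -1.41 (SE 1.03, adjusted p = 0.356) was not called, whereas without that library it was -3.53 (adjusted p = 0.0118). The called higher members, named after their values were seen, were the efflux pumps Abcc3 at 0.58 (adjusted p = 0.0472) and Abcc4 at 1.91 (adjusted p = 0.0432). Both lost their calls without any 1 of Lats1/2 KO 1, 2 and 3 and flox ctrl 2, 3 and 4 (adjusted p from 0.0558 to 0.132).

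Cytochrome P450 and conjugating enzymes were called lower in 13 of 39 cases and higher in 4, with a median of -0.55. The count of lower calls was 7, with 6 higher, with scaling by total counts alone, 7 without Lats1/2 KO 2 and 21 without Lats1/2 KO 3. Aox3, an aldehyde oxidase, had 116.7, 129.0 and 129.5 CPM in Lats1/2 KO, against 439.6, 523.9, 403.8 and 373.1 CPM in flox ctrl (log2 fold change -1.80, SE 0.149, adjusted p = 0.000137). Cyp2d40, which was not in the list, had a log2 fold change of -2.94. Cyp2c29 at -3.24 lost its call without Lats1/2 KO 2 (-2.94, adjusted p = 0.0912), and Cyp2c38, also outside the list, at -3.35 without Lats1/2 KO 1 (adjusted p = 0.0532) or Lats1/2 KO 2 (adjusted p = 0.0784). The called higher members were the glutathione transferase Gstm1, the sulfotransferase Sult1a1 at 1.06 and, named after their values were seen, the epoxygenase Cyp2c23 at 0.71 and Cyp3a59 at 1.38, the last of them lost without Lats1/2 KO 2 (adjusted p = 0.0578). Gstm1 had 2771, 2513 and 3054 CPM in Lats1/2 KO, against 1169, 1022, 1011 and 815.5 CPM in flox ctrl (log2 fold change 1.47, SE 0.159). Members of the Cyp2c, Cyp2d, Cyp3a, Gstm and Mup families resemble each other closely, so that reads may have been split between paralogs.

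Zonation, the division of labour between hepatocytes near the portal tract and near the central vein, showed where the Lats1/2 KO libraries differed among themselves. Periportal genes were called lower in 13 of 19 cases and higher in none, with library medians of -0.89, -0.92 and -0.78 in Lats1/2 KO 1, 2 and 3, as log2 levels relative to the mean of the flox ctrl libraries. Pericentral genes were called lower in 5 of 20 cases, beside 12.1% of all tested genes. Their library medians were -1.86, -1.83 and 0.24 in Lats1/2 KO 1, 2 and 3, against -0.46, -0.13, 0.42 and 0.16 in flox ctrl. Without Lats1/2 KO 3, 13 of the 20 were called lower, and without Lats1/2 KO 2, 3 were. Cyp2e1, the ethanol-metabolising P450, had 145.8, 185.7 and 842.0 CPM in Lats1/2 KO, against 893.1, 1169.9, 1759 and 1351 CPM in flox ctrl, a log2 fold change of -1.72 that was not called (SE 0.648, adjusted p = 0.0859) and was -2.97 (adjusted p = 0.000333) without Lats1/2 KO 3. Lect2, a secreted pericentral protein, behaved alike, at -1.52 (adjusted p = 0.0595) with and -2.36 (adjusted p = 0.00217) without that library, and it was also called without flox ctrl 1 (-1.69, adjusted p = 0.0461).

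The 5 called lower pericentral genes were Glul, Slc1a2, Lgr5, Notum and Oat. Glul, glutamine synthetase, had 60.8, 84.9 and 155.5 CPM in Lats1/2 KO, against 357.7, 448.0, 879.9 and 664.2 CPM in flox ctrl (log2 fold change -2.55, SE 0.431, adjusted p = 0.00422). Slc1a2, whose promoter sequence was given with those of the YAP targets, had 3.76, 6.53 and 24.5 CPM in Lats1/2 KO, against 55.0, 75.1, 153.0 and 104.5 CPM in flox ctrl (log2 fold change -3.03, SE 0.72, adjusted p = 0.02), and lost its call without Lats1/2 KO 2 (-2.74, adjusted p = 0.107). Lgr5, the R-spondin receptor, and Notum, a secreted Wnt deacylase, had log2 fold changes of -2.61 and -2.50. Oat, ornithine aminotransferase, at -2.28 (adjusted p = 0.041), lost its call with scaling by total counts alone and without any 1 of Lats1/2 KO 1 and 2 and flox ctrl 2 and 4 (adjusted p from 0.0524 to 0.169). In each of these 5 genes Lats1/2 KO 3 had the highest knockout level.

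Male-biased liver genes, which depend on the pulses of growth hormone, were called lower in 9 of 21 cases and higher in 1, with a median of -1.20, and in 5, 4 and 15 cases without Lats1/2 KO 1, 2 and 3. Mup9, a major urinary protein, had 1.31, 2.74 and 9.57 CPM in Lats1/2 KO, against 125.9, 295.4, 103.4 and 110.7 CPM in flox ctrl (log2 fold change -5.06, SE 0.795, adjusted p = 0.00454). Mup1 and Mup12 had -2.71 and -3.18. Cyp17a1, a steroid hydroxylase and the only tested member of the female-biased list, had -3.04. Elovl3, a fatty acid elongase, had 18.5, 20.9 and 105.6 CPM in Lats1/2 KO, against 361.9, 292.9, 303.1 and 635.3 CPM in flox ctrl (log2 fold change -3.04, SE 0.74), and lost its call without Lats1/2 KO 2 (-2.67, adjusted p = 0.0943). The 1 called higher member, Selenbp2, overlapped between groups (1.16, adjusted p = 0.0455), was named after its value was seen, and lost its call without any 1 of the Lats1/2 KO libraries 1, 2 and 3 and flox ctrl 1, 2 and 3 (adjusted p from 0.0746 to 0.135). In the growth hormone and IGF1 axis, Igfbp2, an IGF-binding protein, had 25.4, 38.8 and 35.5 CPM in Lats1/2 KO, against 223.9, 235.3, 181.7 and 280.2 CPM in flox ctrl (log2 fold change -2.79, SE 0.201, adjusted p = 6.21e-05), and the receptor gene Ghr had -0.93.

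Hepatocyte transcription factors moved less: 6 of 23 were called lower and 1 higher, beside 12.1% and 18.5% of all tested genes. The median of -0.39 was 0.01, on the other side of 0, with scaling by total counts alone, which called 3 higher and 3 lower. Foxa3, a forkhead pioneer factor, had 51.4, 49.7 and 58.7 CPM in Lats1/2 KO, against 91.2, 108.4, 107.6 and 140.3 CPM in flox ctrl (log2 fold change -1.07, SE 0.154), and Cebpa, a factor of the quiescent hepatocyte, had -0.98. Hnf4a, the central hepatocyte regulator, had 212.1, 208.4 and 268.2 CPM in Lats1/2 KO, against 304.5, 395.1, 349.6 and 311.9 CPM in flox ctrl. Its log2 fold change of -0.57 (SE 0.148, adjusted p = 0.0173) was -0.16 and not called with scaling by total counts alone, and the call was lost without any 1 of Lats1/2 KO 1 (0.0736), Lats1/2 KO 2 (0.0642) and flox ctrl 2 (0.0504). The 1 higher member was Cebpd, an acute phase factor, at 1.41 (adjusted p = 0.000554).

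**Figure D4:**
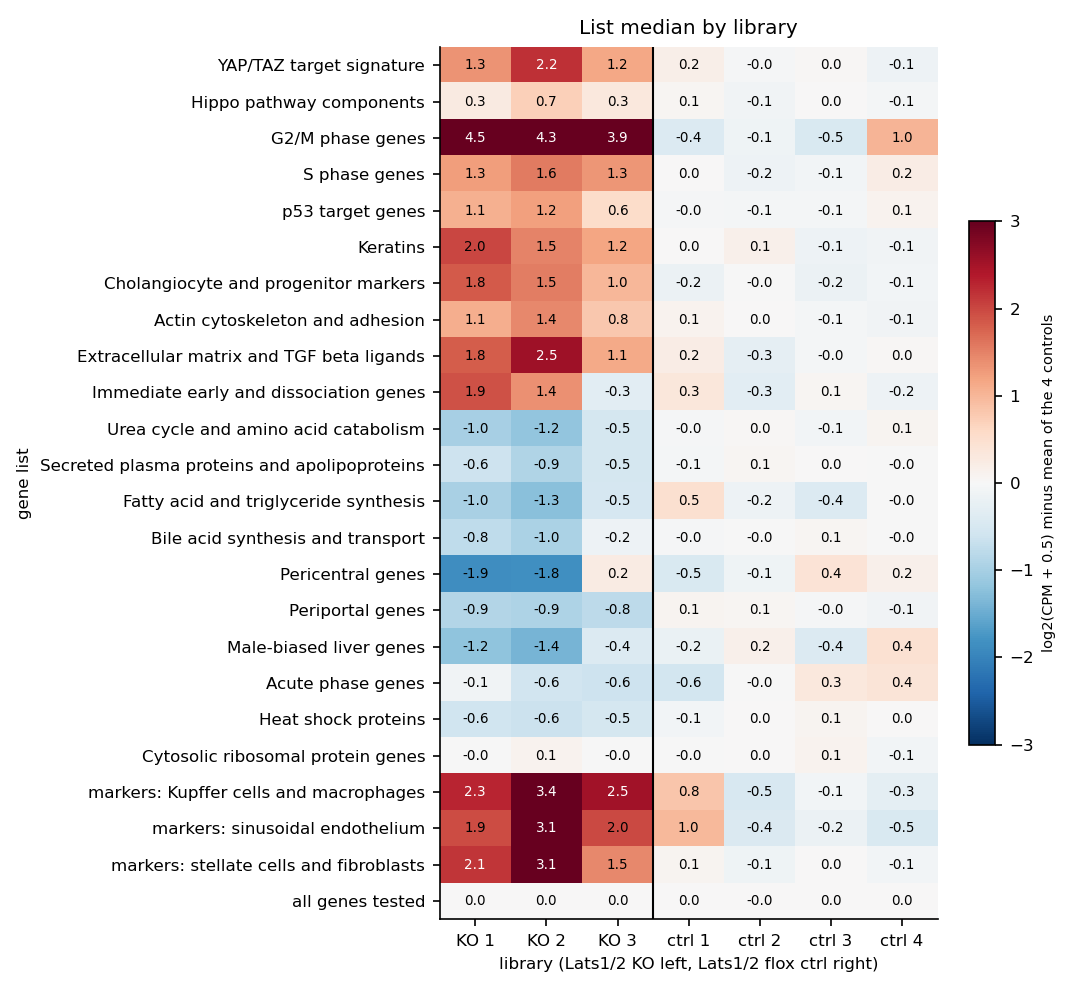
Median level of the tested members of 23 gene lists and of all tested genes (rows) in each library (columns, Lats1/2 KO left, flox ctrl right), as log2(CPM + 0.5) minus the mean of the 4 flox ctrl libraries; red is higher and blue lower. G2/M genes are high in all 3 Lats1/2 KO libraries, non-hepatocyte markers peak in Lats1/2 KO 2, and pericentral and immediate early genes differ between Lats1/2 KO 3 (0.24 and -0.31) and the other 2 libraries.

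Immediate early genes, which respond within minutes to growth factors and to tissue dissociation, divided the Lats1/2 KO libraries in the same way as pericentral genes. Library medians over 24 tested genes were 1.91, 1.38 and -0.31 in Lats1/2 KO 1, 2 and 3, against -0.33 to 0.35 in flox ctrl. The calls were 5 higher and none lower, beside 18.5% and 12.1% of all tested genes. Higher calls numbered 11 with scaling by total counts alone, 1 without Lats1/2 KO 2 and 21 without Lats1/2 KO 3. Gadd45b, a stress-induced regulator of MAP kinase signalling, had 103.5, 49.0 and 15.4 CPM in Lats1/2 KO, against 3.43, 3.07, 5.85 and 4.31 CPM in flox ctrl (log2 fold change 3.74, SE 0.635, adjusted p = 0.00541). Klf6, a zinc finger factor, had 182.3, 124.9 and 27.7 CPM in Lats1/2 KO, against 15.8, 12.1, 17.5 and 16.5 CPM in flox ctrl (log2 fold change 2.85, SE 0.572, adjusted p = 0.0103), and lost its call without Lats1/2 KO 2 (2.76, adjusted p = 0.0567). The other called members were Ier3, Klf2 and Klf4, at 2.86, 2.22 and 2.01. Without Lats1/2 KO 2 none of these 3 kept its call (adjusted p from 0.0525 to 0.133), and Ier3 lost it also without any 1 of Lats1/2 KO 1 and flox ctrl 1, 2, 3 and 4 (adjusted p from 0.0528 to 0.105).

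Heat shock proteins were called lower in 9 of 14 cases and higher in none (median -0.60), or in 3 with scaling by total counts alone. Hsph1, an HSP70 nucleotide exchange factor, had 30.4, 34.2 and 53.5 CPM in Lats1/2 KO, against 101.8, 118.2, 143.2 and 101.9 CPM in flox ctrl (log2 fold change -1.56, SE 0.216, adjusted p = 0.00127). Hspa1b, an inducible HSP70, had a log2 fold change of -2.10, while the constitutive Hspa8 and Hsp90ab1 at -0.77 and -0.71 lost their calls with scaling by total counts alone. Chaperones of the endoplasmic reticulum were called lower in 10 of 20 cases (median -0.57), in none with scaling by total counts alone, in 6 without Lats1/2 KO 1, 3 without Lats1/2 KO 2, 5 without flox ctrl 2 and 4 without flox ctrl 3. Hyou1 among them had -0.81 (adjusted p = 0.00805), or -0.41 and no call with total counts alone.

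Antioxidant genes of the NRF2 programme were called higher in 7 of 17 cases and lower in 1 (median 0.46). The called higher members were Gstm3, Gsta1, Gsta2, Nqo1, Osgin1, Srxn1 and Abhd4. The glutathione transferase gene Gstm3 had 105.4, 126.6 and 87.9 CPM in Lats1/2 KO, against 20.7, 17.2, 16.2 and 32.3 CPM in flox ctrl (log2 fold change 2.3, SE 0.243), and Gsta1 and the quinone reductase gene Nqo1 had 3.61 and 1.70. The 1 lower member, the peroxiredoxin Prdx1, at -0.45 (adjusted p = 0.0214), was at -0.04 with scaling by total counts alone and lost its call without any 1 of Lats1/2 KO 1 and 2 and flox ctrl 2 and 3 (adjusted p from 0.0515 to 0.0893).

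Interferon response genes were called higher in 17 of 38 cases and lower in 1, Lats1/2 KO 2 being the highest library for 16 of the 17. Of the 38, 5 passed the filter on low counts only through the Lats1/2 KO libraries, and 13 of the 17 passed it in flox ctrl libraries. The count of higher calls was 9 without Lats1/2 KO 1, 4 without Lats1/2 KO 2, 8, 5 and 10 without flox ctrl 1, 2 and 3, and 28 with scaling by total counts alone. The 1 lower gene, Ifi27 at -0.56 (adjusted p = 0.0344), was named after its value was seen, was at -0.16 with scaling by total counts alone, and lost its call without any 1 of Lats1/2 KO 1, 2 and 3 and flox ctrl 2 and 3 (adjusted p from 0.0509 to 0.0984). Ifit2, an interferon-induced RNA-binding protein, had 17.9, 21.5 and 8.82 CPM in Lats1/2 KO, against 1.93, 0.657, 1.26 and 1.63 CPM in flox ctrl (log2 fold change 3.53, SE 0.387, adjusted p = 0.000465), and the guanylate-binding protein Gbp3 had 2.48. Among chemokines and receptors 9 of 15 were called higher and none lower, 5 without Lats1/2 KO 2. The filter on low counts was passed only through the Lats1/2 KO libraries by 5 of the 15, and in flox ctrl libraries by 5 of the 9 called. Ccl9, a macrophage inflammatory chemokine of the mouse, had 397.4, 318.9 and 264.4 CPM in Lats1/2 KO, against 61.4, 71.0, 48.0 and 66.1 CPM in flox ctrl (log2 fold change 2.41, SE 0.177, adjusted p = 7.33e-05), and unlike the macrophage markers it was highest in Lats1/2 KO 1.

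Acute phase genes were spread widely within the flox ctrl group. Saa1, serum amyloid A1, had 141.2, 50.8 and 28.1 CPM in Lats1/2 KO, against 126.0, 1164, 3515 and 1229 CPM in flox ctrl. Flox ctrl 1 lay inside the range of the Lats1/2 KO libraries, and the log2 fold change of -4.37 had an SE of 1.26 (adjusted p = 0.0428). Its call was lost without any 1 of Lats1/2 KO 1, 2 and 3 and flox ctrl 2 and 4 (adjusted p from 0.0557 to 0.184). Of 30 tested acute phase genes 6 were called lower and none higher, beside 12.1% and 18.5% of all tested genes, but 3 lower and 5 higher with scaling by total counts alone. The lower calls numbered 1 without Lats1/2 KO 2, 3 without Lats1/2 KO 3, 3 without flox ctrl 2 and 10 without flox ctrl 1.

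The 43 tested cytosolic ribosomal protein genes had a median log2 fold change of 0.01 and 1 call, which became 0.41 and 28 higher calls with scaling by total counts alone. The called gene was Rps19 at 0.41 (adjusted p = 0.0228), which lost its call without any 1 of Lats1/2 KO 1 and flox ctrl 1, 2 and 4 (adjusted p from 0.0526 to 0.0816). Mitochondrially encoded mRNAs were called lower in 6 of 8 cases (median -0.61), but in none with scaling by total counts alone, in 3 without Lats1/2 KO 2 and in 2 without flox ctrl 2. They took 11.4%, 10.5% and 11.5% of counts in Lats1/2 KO, against 12.3%, 13%, 11.8% and 13% in flox ctrl. For mt-Co1, a subunit of cytochrome c oxidase, the log2 fold change was -0.71 (adjusted p = 0.01), or -0.31 and no call with scaling by total counts alone. Nuclear genes of the respiratory chain were called lower in 6 of 25 cases, beside 12.1% of all tested genes. Their median of -0.32 was 0.08 with scaling by total counts alone. The count of lower calls was 1 without Lats1/2 KO 1 or Lats1/2 KO 2, 18 without Lats1/2 KO 3, 2 without flox ctrl 1 or flox ctrl 2 and 3 without flox ctrl 3.

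The virus alone was represented by C57BL/6 mice taken 24 hours after injection, an earlier time than the 1 week of the knockout, so the comparison covers early effects of virus and Cre only. In BL/6 AAV-Cre 278 of 10673 tested genes (2.6%) were called higher and 224 (2.1%) lower than in BL/6 ctrl. Of the 2143 genes called higher in Lats1/2 KO, 19 were also called higher in BL/6 AAV-Cre, 0.887% of the first list and 6.83% of the second, and 23 were called lower there. Of the 1400 called lower in Lats1/2 KO, 54 were also called lower in BL/6 AAV-Cre (3.86% and 24.1% of the lists) and 81 were called higher there. The 2 responses share no library, and the difference between them was tested directly. It was called in the direction of a higher Lats1/2 KO response for 1644 of 11866 genes (13.9%) and of a lower one for 1363 (11.5%), or for 3267 and 471 with scaling by total counts alone, so that 87.4% of the calls were on the higher side against 54.7% here.

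A higher Lats1/2 KO response was called for 43 of 44 G2/M genes, 32 of 42 actin and adhesion genes and 10 of 18 YAP targets. A higher response was also called for 20 of 21 macrophage, 20 of 22 endothelial and 15 of 18 stellate markers, and the part of those cells in the other differences was not tested. This difference, too, contains the libraries on which the knockout genes were called. In the 7-library fit 26 of the 44 G2/M genes and 5 of 17 YAP targets passed the filter only through Lats1/2 KO. Between the BL/6 groups alone 24 of the 44 G2/M genes were tested. Ccn2 differed by 6.19 (adjusted p = 0.000975), Ccn1 by 3.81, Amotl2 by 2.62 and Mki67 by 5.60 on the log2 scale, and Lats1 differed by -1.96 (adjusted p = 0.00014). The largest were Hmmr, Knl1, Pbk, Cenpf and Cdc20, all genes of mitosis, at 7.67, 7.66, 7.29, 7.2 and 7.09. Such a difference holds the change in BL/6 AAV-Cre as well as that in Lats1/2 KO. Over the G2/M list the median log2 fold change was 4.71 in Lats1/2 KO, with a largest value of 5.61. In BL/6 AAV-Cre the median was -0.93, with 3 of 24 tested members called lower and none higher. On the lower side stood Saa2, Saa1 and Saa3 at -8.49, -7.09 and -4.25, Mup9 at -6.17 and Apoa4 at -4.70. The serum amyloid genes had log2 fold changes of 3.64, 2.71 and 1.36 in BL/6 AAV-Cre, against -4.83, -4.37 and -2.87 in Lats1/2 KO, where the flox ctrl libraries were spread. Arg1 and Glul differed by -1.62 and -2.78. Few interferon genes had a called difference: with median log2 fold changes of 0.66 in Lats1/2 KO and 0.69 in BL/6 AAV-Cre, none of the 38 had a called higher difference and 1, Ifi27, a called lower one. In Lats1/2 KO 17 of 38 were called higher, and in BL/6 AAV-Cre 1 of 35. On simulated counts the test of this difference recovered 32% of 2-fold changes, so a difference that was not called does not show that the responses were alike. Cebpd had the same log2 fold change of 1.41 in both comparisons, called in Lats1/2 KO and not in BL/6 AAV-Cre (adjusted p = 0.178), with a difference of -0.02 (adjusted p = 0.984), and Mbl2 had 1.30 and 0.73, with a difference of 0.55 (adjusted p = 0.0394).

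Human YAP switched on in ApoYap Dox hepatocytes for 1 week gave the other comparison, by activating the coactivator directly instead of removing its kinases. There 4698 of 12715 tested genes (36.9%) were called higher and 4174 (32.8%) lower than in ApoYap ctrl, 69.8% in either direction. Of the 2143 genes called higher in Lats1/2 KO, 1885 were called higher in ApoYap Dox, 88.0% of the knockout list and 40.1% of the YAP list, and 26 were called lower. Of the 1400 called lower in Lats1/2 KO, 1292 were called lower in ApoYap Dox, 92.3% and 31.0% of the lists, and 10 were called higher. The direct test of the difference called 2426 of 12942 genes (18.7%) with a higher and 1562 (12.1%) with a lower Lats1/2 KO response. With scaling by total counts alone these were 1134 and 3720, 23.4% of the calls on the higher side against 60.8% here. The difference contains the libraries on which the knockout genes were called. Among genes called lower in Lats1/2 KO, 840 had a called difference on the higher side, that is, they were lowered less than in ApoYap Dox, and 45 on the lower side. Among genes called higher, 147 had a higher and 555 a lower difference.

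Hepatocyte genes had less negative fold changes in Lats1/2 KO than in ApoYap Dox. For 37 of 41 genes for urea production and amino acid breakdown the difference was called higher and for none lower (median 1.63, or 1.13 with scaling by total counts alone). The same held for 31 of 40 cytochrome P450 and conjugating enzymes (median 2.35), 28 of 32 plasma proteins (1.25), 31 of 35 complement and coagulation factors (1.45), 22 of 25 cholesterol genes (1.49), 23 of 25 nuclear respiratory chain genes (0.92) and 17 of 21 male-biased genes (3.56), and each of these medians stayed above 0 with scaling by total counts alone, which left 12 calls among the respiratory chain genes. Arg1 had log2 fold changes of -1.30 in Lats1/2 KO and -3.16 in ApoYap Dox (difference 1.83, adjusted p = 6.57e-05), Fabp1 -1.27 and -6.46 (difference 5.15), Slc10a1 -1.70 and -5.45 (difference 3.71) and Cyp2e1 -1.72 and -7.24 (difference 5.50). The named differences of this direction were Dct, Cyp2c40, Hsd3b5, Ugt2b38 and Sult2a8, at 6.61 to 7.17. Mbl2 rose in Lats1/2 KO and fell by 1.97 in ApoYap Dox, a difference of 3.24 (adjusted p = 5.93e-06). Glul, by contrast, had -2.55 and -1.98, and the difference of -0.60 was not called (adjusted p = 0.433).

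A difference between the 2 responses in either direction was called for 30.8% of all tested genes, for 5 of 20 YAP targets and for 3 of 44 G2/M genes. Ccn2 had log2 fold changes of 6.57 in Lats1/2 KO and 6.68 in ApoYap Dox, with a difference of -0.14 (SE 0.458, adjusted p = 0.846), and Mki67 5.15 and 5.70, with a difference of -0.59 (SE 0.735, adjusted p = 0.588). Of 44 G2/M genes 2 had a higher difference (Cenpa and Spc25) and 1 a lower one (Incenp), and of 41 S phase genes 3 had a lower one (Pola1, Chaf1b and Tk1), or 11 with scaling by total counts alone. Of 20 YAP targets tested 2 had a higher difference (Crim1 and Rbms3) and 3 a lower one (Axl, Lats2 and Myof), or none and 7 with scaling by total counts alone. Crim1 differed by 0.66 (adjusted p = 0.0189), Axl by -2.91 (adjusted p = 0.000765) and Lats2 by -1.60 (adjusted p = 0.000691). Ajuba, of the Hippo components, had 4.81 in Lats1/2 KO and 2.8 in ApoYap Dox (difference 1.98, adjusted p = 0.0113). A p above the threshold does not show that the responses were alike.

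Other groups separated the responses in both directions. Actin and adhesion genes had a lower difference in 22 of 44 cases and a higher one in 1, S100a10 (median -0.79), with Flna at -1.84, and tubulins a higher one in 5 of 11 (Tuba1c, Tuba4a, Tubb2a, Tubb4b and Tubg1), with Tubb4b at 1.47 (adjusted p = 0.00266), log2 fold changes being 1.51 in Lats1/2 KO and 0.01 in ApoYap Dox. Cytosolic ribosomal protein genes had a lower difference in 35 of 43 cases (median -0.62, or -1.10 with scaling by total counts alone). Macrophage markers had a lower one in 20 of 21 (median -2.75), with Timd4 at -3.43, endothelial markers in none of 22, and stellate markers a higher one in 7 of 20, or in 2 with scaling by total counts alone, with Rgs5 at 2.37 (adjusted p = 0.00202). The named differences on the lower side were Apela, Mmp9, Pla2g7, Cx3cr1 and Samsn1, at -10.30, -6.07, -5.55, -5.03 and -4.97. Apela, a ligand of the apelin receptor, had a log2 fold change of 10.42 in ApoYap Dox but was too low to be tested in the knockout libraries alone, with 3, 6 and 1 counts in Lats1/2 KO and 2, 0, 5 and 1 counts in flox ctrl. Sox9 and Cd36 had differences of 1.39 (adjusted p = 0.0484) and 0.71 (adjusted p = 0.0191), Gstm1 of 0.98 and Hspa1b of -2.09 (adjusted p = 0.0224).

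**Figure D5:**
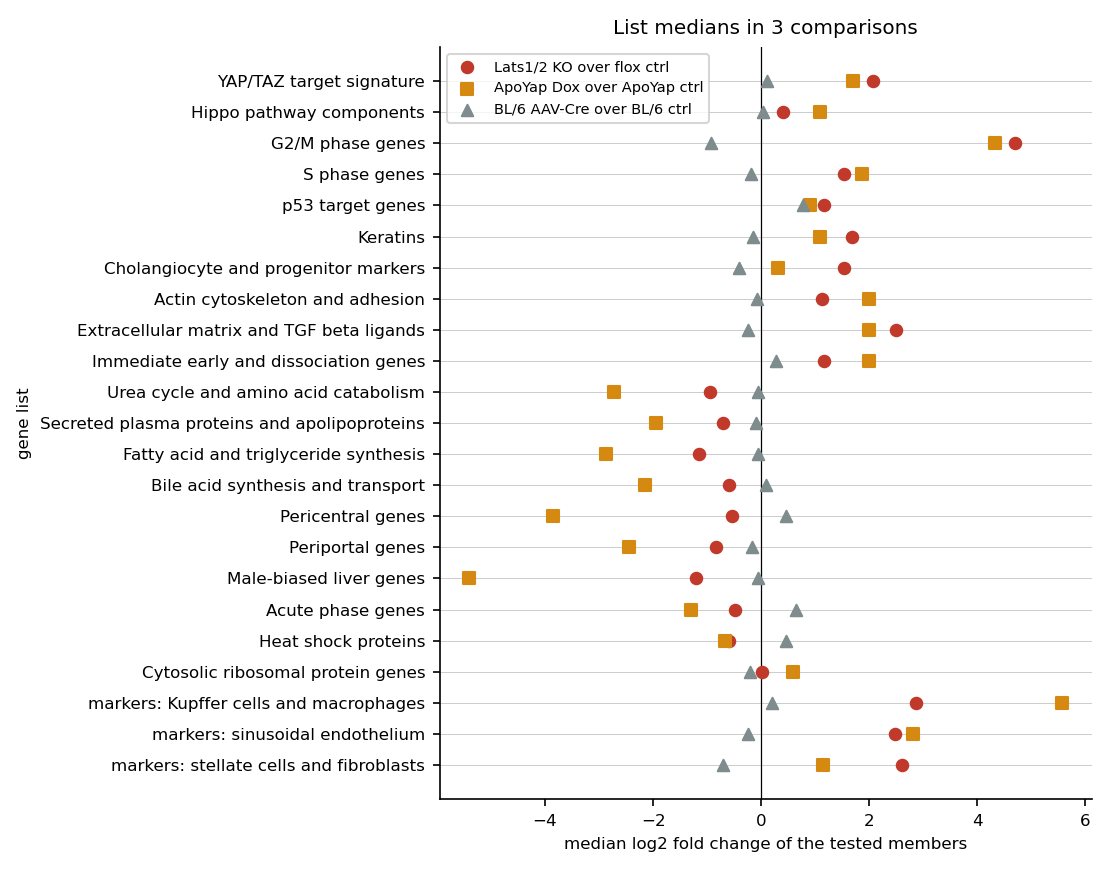
Median log2 fold change of the tested members of 23 gene lists (rows) in Lats1/2 KO over flox ctrl (red circles), ApoYap Dox over ApoYap ctrl (orange squares) and BL/6 AAV-Cre over BL/6 ctrl (grey triangles). Red and orange lie close for YAP targets (2.07 and 1.70) and G2/M genes (4.71 and 4.32) and far apart for male-biased genes (-1.20 and -5.40), while the grey points stay between -0.93 and 0.78.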

How the data were processed

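Sorted mouse hepatocytes were profiled by 3′ mRNA sequencing (QuantSeq forward kit), per the labels' protocols, from 500000 sorted cells. The authors deposited 1 table of whole-number read counts, not normalized, for 37117 gene symbols in 25 libraries. FastQC, cutadapt, STAR 2.6.1d and the builds mm10 and GRCm38 are named in the submitters' processing notes; how reads were counted, with which annotation and strand setting, is not given in the sources used here. Overlapping genes and close paralogs may therefore share or split reads.

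The 7 libraries were tested with edgeR 4.0.16 (R 4.3.3) from the deposited counts: filterByExpr with a minimum count of 10 and a total of 15, equal to 0.944 CPM in 3 libraries, TMM scaling, and the robust quasi-likelihood test with Benjamini-Hochberg adjustment over all tested genes. Differences between responses were contrasts of a fit over the 14 libraries of the 4 groups. DESeq2 1.42.0, limma 3.58.1 (voom), other scalings, filters and thresholds, a replicate block and leaving out each library were the alternatives. Summed markers were compared by exact two-sided permutation over 35 splits (scipy 1.17.1). Intervals cover counting error only.

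On simulated counts with 100 genes changed per fold among 11613, the test recovered 59% of 2-fold and 79% of 4-fold changes; for the difference from BL/6 AAV-Cre (11866 genes) it recovered 32% and 70%, and for that from ApoYap Dox (12942 genes) 30% and 70%.

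The gene lists and members were chosen with earlier results of these data known. Named genes are the 10 largest called changes each way among genes whose groups did not overlap and whose mean log2 CPM reached 2 (predicted, pseudo- and Y-linked genes skipped), the 6 members per list of smallest p, a list of known liver and Hippo genes, the 5 largest called differences each way from each other response, and the genes most and least variable among knockout libraries. Mcm10, C4bp, Pros1, Eci2, Cyp2c23, Cyp3a59, Abcc3, Abcc4, Selenbp2, Taok3, Wtip, Tead1, Col18a1, Pklr, Pcx and Ifi27, and genes given by symbol alone to complete a count, were named after their values were seen. Of 1154 listed symbols 1152 were in the table; some genes are not reported here. Gene coordinates are from GENCODE M21 (GRCm38), in which 36339 symbols matched 1 gene, and promoters from RefSeq (GRCm38.p6).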

Additional observations from a re-analysis of the deposited data

Results flagged for a closer look

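In 18 of 199 groups of 4 flox ctrl libraries, 1 library lay farther from the other 3 than Dixon's 95% critical value allows, a distance that chance gives in about 1 of 20 groups. Flox ctrl 4 stood out in 8 genes: Cenpf at 6.904 CPM, Hmmr at 7.288, Knl1 at 1.822, Cdc20 at 1.343, Uhrf1 at 0.2877, Spp1 at 8.63, Tubb4b at 4.986 and Krt4 at 0.1918 CPM. In that library 1 count equals 0.0959 CPM, so Krt4 and Uhrf1 were flagged at the count floor. Other flox ctrl libraries had 0 CPM for Krt4 and 0.1071 to 0.1146 CPM for Uhrf1. The rate of 1 in 20 need not hold for such small counts. Flox ctrl 2 stood out for Arg1 (1800.2 CPM), Mup9 (295.4), Nqo1 (0.9859), Cry1 (18.95) and Per1 (5.039), flox ctrl 3 for Ccnd1 (4.7), Cyp2c23 (238.4) and Igf1r (0.8024), and flox ctrl 1 for Krt23 (2.463) and Hk1 (0.6425).

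The response of Lats1/2 KO differed from that of BL/6 AAV-Cre by the test of the difference itself in 1644 genes on the higher and 1363 on the lower side. The log2 differences on the higher side were 7.67 for Hmmr, 7.66 for Knl1, 7.29 for Pbk, 7.2 for Cenpf, 7.09 for Cdc20, 6.19 for Ccn2, 5.60 for Mki67, 3.81 for Ccn1, 2.62 for Amotl2 and 0.55 for Mbl2. On the lower side they were -8.49 for Saa2, -7.09 for Saa1, -6.17 for Mup9, -4.70 for Apoa4, -4.25 for Saa3, -2.78 for Glul, -1.96 for Lats1 and -1.62 for Arg1.

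The response also differed from that of ApoYap Dox in 2426 genes on the higher and 1562 on the lower side. Log2 differences on the higher side were 7.17 for Dct, 7.08 for Cyp2c40, 6.70 for Hsd3b5, 6.61 for Ugt2b38, 6.61 for Sult2a8, 5.50 for Cyp2e1, 5.15 for Fabp1, 3.71 for Slc10a1, 3.24 for Mbl2, 2.37 for Rgs5, 1.98 for Ajuba, 1.83 for Arg1, 1.47 for Tubb4b, 1.39 for Sox9, 0.98 for Gstm1, 0.71 for Cd36 and 0.66 for Crim1. On the lower side they were -10.30 for Apela, -6.07 for Mmp9, -5.55 for Pla2g7, -5.03 for Cx3cr1, -4.97 for Samsn1, -3.43 for Timd4, -2.91 for Axl, -2.09 for Hspa1b, -1.84 for Flna and -1.60 for Lats2. The single-gene differences were chosen by the rule for named genes or because the text uses them.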

How the results depend on the processing

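Changes are relative to the typical gene, and total counts alone in place of TMM moved the median of all genes by 0.41, by 0.40 for the difference from BL/6 AAV-Cre and by -0.48 for that from ApoYap Dox. Higher and lower calls were then 4542 and 381 for Lats1/2 KO against flox ctrl, 3267 and 471 for the difference from BL/6 AAV-Cre, and 1134 and 3720 for the difference from ApoYap Dox. For Lats1/2 KO against flox ctrl, higher calls were 1163 with at least 10 CPM in 3 libraries, 1300 when a fold of 1.5 was tested (254 lower) and 1310 at an adjusted p under 0.01 (575 lower), and lower calls were 2258 with all 25 libraries in the fit. Leaving out 1 library gave 1507 to 2369 higher and 767 to 1783 lower calls. For the difference from BL/6 AAV-Cre it gave 1164 to 1814 higher and 976 to 1753 lower, and for that from ApoYap Dox 1932 to 2463 higher and 1119 to 1859 lower. Marker sum ratios ranged from 6.06 to 11.9 for macrophages, 5.31 to 9.87 for monocytes, 4.35 to 9.46 for endothelium and 4.76 to 9.31 for stellate cells. They ranged from 5.62 to 10.4 for neutrophils, 3.7 to 35.6 for lymphocytes, 1.77 to 3.74 for erythroid cells and 0.835 to 0.868 for hepatocytes. For cholangiocyte and progenitor markers they ranged from 3.69 to 5.99, and for mitochondrial mRNAs from 0.87 to 0.91. Replicate numbers did not pair the libraries: same-numbered deviations correlated at -0.114, -0.317 and 0.003. With the replicate block the calls were 1579 higher and 998 lower, 956 and 906 for the difference from BL/6 AAV-Cre and 2106 and 1312 for that from ApoYap Dox. Of 179 called genes named in the text, 121 had the same direction and call under every one of the 16 alternatives that gave them a value (at least 14; 84 of the 120 with a value in all 16), and 1 changed sign, Pcx, at 0.02 with total counts alone; the cause of the other losses was not tested. Depth limits genes near 1 CPM, where 716 of the higher calls began.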

Other observations

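Of 28 tested genes of glycolysis, gluconeogenesis and the pentose phosphate pathway 4 were called higher in Lats1/2 KO and 5 lower, beside 18.5% and 12.1% of all tested genes, and 9 higher and 3 lower with scaling by total counts alone. The higher genes were the hexokinases Hk1 and Hk2 at log2 fold changes of 3.58 and 3.17, the platelet phosphofructokinase Pfkp at 3.03 and the muscle type pyruvate kinase Pkm at 3.56. Only 1 of these 4 passed the filter on low counts in flox ctrl libraries. Pkm had 21.6, 41.4 and 17.5 CPM in Lats1/2 KO, against 2.68, 1.86, 3.44 and 1.15 CPM in flox ctrl. All 4 were highest in Lats1/2 KO 2, the library with the highest macrophage and endothelial markers, and the part of those cells was not tested. Among the lower genes were Pklr, liver pyruvate kinase, at -1.83, Fbp1, of gluconeogenesis, at -0.84 and Pcx, pyruvate carboxylase, at -0.38. Pklr lost its call without Lats1/2 KO 1 (adjusted p = 0.0501) or Lats1/2 KO 2 (0.074), and Pcx lost its call without any 1 library other than Lats1/2 KO 3 (adjusted p from 0.0623 to 0.16) and with scaling by total counts alone. Lower calls numbered 3 with scaling by total counts alone, 2 without Lats1/2 KO 1 or Lats1/2 KO 2, 3 without flox ctrl 1 or flox ctrl 3 and 9 without Lats1/2 KO 3.

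In the Notch pathway 5 of 12 tested genes were called higher and none lower: the receptor Notch4 at 2.75, the ligand Dll4 at 2.34, Nrarp at 2.95, Maml2 at 2.41 and the glycosyltransferase Lfng at 2.76. None of the 5 passed the filter on low counts in flox ctrl libraries. Lats1/2 KO 2, the library with the highest endothelial markers, was the highest library for all 5, and 3 were called without it. Dll4 lost its call without that library (adjusted p = 0.0738), and Nrarp without any 1 of Lats1/2 KO 1 and 2 and flox ctrl 2, 3 and 4 (adjusted p from 0.0552 to 0.191). Among growth factor genes 5 of 19 were called higher and 1 lower, beside 18.5% and 12.1% of all tested genes. The filter on low counts was passed only through the Lats1/2 KO libraries by 3 of the 19, and in flox ctrl libraries by 3 of the 5. Of the higher genes, the EGF receptor ligand Hbegf had 24.0, 16.3 and 4.52 CPM in Lats1/2 KO, against 2.25, 2.52, 1.61 and 1.25 CPM in flox ctrl. The hepatocyte growth factor gene Hgf had a log2 fold change of 3.14, and the part of non-hepatocytes in these increases was not tested. The others were Fgfr2, Spry1 and Etv5, at 0.72, 2.21 and 1.54, each of which lost its call without any 1 of Lats1/2 KO 1 and 2 and flox ctrl 2 (adjusted p from 0.0617 to 0.111), and Fgfr2 and Etv5 also without flox ctrl 3 and Etv5 without flox ctrl 1. The 1 lower gene, the receptor Fgfr3, had 8.13, 6.25 and 7.55 CPM in Lats1/2 KO, against 14.1, 17.1, 15.5 and 13.9 CPM in flox ctrl. In the growth hormone and IGF1 list, the receptor gene Igf1r was higher at 2.3, not called without Lats1/2 KO 2 (adjusted p = 0.058), and the kinase Jak2 at 1.07.

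Of 16 tested ATF4 and amino acid stress genes 4 were called higher and 2 lower, beside 18.5% and 12.1% of all tested genes. The filter on low counts was passed only through the Lats1/2 KO libraries by 2 of the 16, and in flox ctrl libraries by 2 of the 4 called higher. The higher genes were Psat1 at 1.84, Mthfd2 at 1.38, Slc7a1 at 3.59 and Sesn2 at 0.91. The lower genes were Atf5 at -0.66 and Shmt2 at -0.72, neither called with scaling by total counts alone. Sesn2 lost its call without Lats1/2 KO 1 (0.0569) or Lats1/2 KO 2 (0.0527), and Atf5 without any 1 of these libraries and flox ctrl 1 and 4 (adjusted p from 0.0518 to 0.0967). Of 17 tested circadian clock genes 3 were called lower and 1 higher, or 1 lower and 2 higher with scaling by total counts alone. Over all tested genes 12.1% were called lower and 18.5% higher. The lower genes were Per2, Cry1 and Hlf, at -2.06, -1.05 and -1.11, and the higher gene was Per1, at 0.93. None of these 4 kept its call without Lats1/2 KO 2 (adjusted p from 0.0509 to 0.12). Per2 also lost it without Lats1/2 KO 1 (0.0514), Hlf without any 1 of Lats1/2 KO 1 and flox ctrl 2 and 3 (from 0.0528 to 0.112), Per1 without any 1 of Lats1/2 KO 3 and the flox ctrl libraries (from 0.0599 to 0.147), and Cry1 and Hlf with scaling by total counts alone. The labels give no hour of collection.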
